A study of Mus musculus with 6 samples.

Results

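The transcripts described here encode 9 enzymes or enzyme subunits of the citric acid cycle, among them all 3 subunits of succinyl-CoA ligase. They are Cs, Idh3a, Ogdh, Suclg1, Suclg2, Sucla2, Sdha, Fh1 and Mdh2, out of 18194 genes named on the array. All probe sets that the platform annotation assigns to these genes alone were taken, each on its own, which gave 22 of 45101 probe sets. The set was chosen by the fold changes between these same arrays, in which Suclg2 stood out, and by membership of the cycle. The differences between the groups are therefore given for the 9 genes as a description. Their intervals and counts past a threshold come from the same fit and are not read as a test.

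CAD is a neuroblastoma cell line from the mouse with catecholamine-neuron traits, and its RNA was collected in 2 groups of 3 biological replicates. The first group was transfected with the plasmid RIPmiR-124a-2, which expresses the microRNA precursor miR-124a-2, and the second with the RI vector, the empty plasmid. Both groups thus went through transfection and grew in DMEM with either fetal bovine serum or Fetaclone III, and neither the time after transfection nor the share of transfected cells is given in the sources used here. In such bulk RNA, a lower signal from fewer cells that contain a transcript and less transcript in each cell cannot be told apart.

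The citric acid cycle runs in the mitochondrial matrix and oxidises the acetyl group of acetyl-CoA to carbon dioxide, passing electrons to the respiratory chain. Its only step that makes a nucleoside triphosphate directly is the conversion of succinyl-CoA to succinate by succinyl-CoA ligase. That enzyme pairs a common alpha subunit, encoded by Suclg1, with either of 2 beta subunits. The beta subunit encoded by Suclg2 gives the GTP-forming enzyme, and the beta subunit encoded by Sucla2 gives the ATP-forming enzyme, which predominates in brain.

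The arrays gave log2 signals between 2.59 and 14.39, with medians of 4.72 to 4.83. Control probe sets for a bacterial transcript averaged 3.37 to 3.50 and serve here as a level for absent RNA. Empty vector replicate 1 and plasmid replicates 1 and 2 had narrow distributions (interquartile ranges of 3.06 to 3.10), against 3.26 to 3.35 in the other 3 arrays, here called wide. Spiked poly-A control transcripts had means of 5.96 and 5.97 on both arrays numbered 1, and of 5.57 to 5.71 elsewhere. The 3′ minus 5′ log2 signal of the transferrin receptor control was 1.34 to 1.55 on those arrays, against 0.95 to 1.09 elsewhere. The labels name no batch, so the split by poly-A signal, here called the poly-A batch, was read from the data. The catecholaminergic regulators Hand2 and Phox2a and the noradrenaline-forming enzyme gene Dbh were at 11.32, 11.16 and 10.34, while Th, the tyrosine hydroxylase gene, was at 6.55. Ddc and Gata3 were at 5.49 and 5.36, and 8 of the 10 catecholaminergic markers measured reached a mean of 6. None of the glial (5), fibroblast (6) and endothelial (3) marker genes measured reached a mean of 6, and 1 of 5 macrophage and 2 of 4 epithelial markers did. The microRNA's reported target Ptbp1, a splicing repressor, was at 10.78 ± 0.22 with the plasmid and at 12.02 ± 0.04 with the empty vector (log2 signal, SD, n = 3 each) in its brightest probe set, a log2 fold change of -1.24 (adjusted p = 0.0180). Its other probe sets differed by -0.27 and 0.07 (adjusted p = 0.709 and 0.981), and the mean over all 3 by -0.48 (adjusted p = 0.0932). The brightest lost its call without any of empty vector replicates 1 to 3, without plasmid replicate 1 or 2 and without both replicate 1 arrays (adjusted p from 0.0566 to 0.244).

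Suclg2 was lower with the miR-124a-2 plasmid in both of its probe sets. Probe set 1435841_s_at, the brighter, read 7.24, 7.04 and 7.46 in plasmid replicates 1 to 3, against 8.60, 8.48 and 8.53 in the empty vector replicates (log2 signal). Probe set 1427441_a_at read 5.91, 5.84 and 6.45 with the plasmid, against 7.43, 7.55 and 7.56 with the empty vector. In either probe set every plasmid array lay below every empty vector array, and plasmid replicate 3 was the highest of its group. The log2 differences were -1.29 ± 0.12 and -1.45 ± 0.16 (SE of limma's fit, plasmid minus empty vector), or 2.44-fold and 2.73-fold lower. They ranked 25 and 12 among the falls of all 45101 probe sets, of which 112 (0.248%) were lower by more than 1 on the log2 scale. The suffix s marks a probe set that may match transcripts of several genes. The suffix a marks one that matches several transcripts of the same gene. The platform annotation assigns both probe sets to Suclg2 alone, and whether another transcript added to the first value was not tested.

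**Figure D1:**
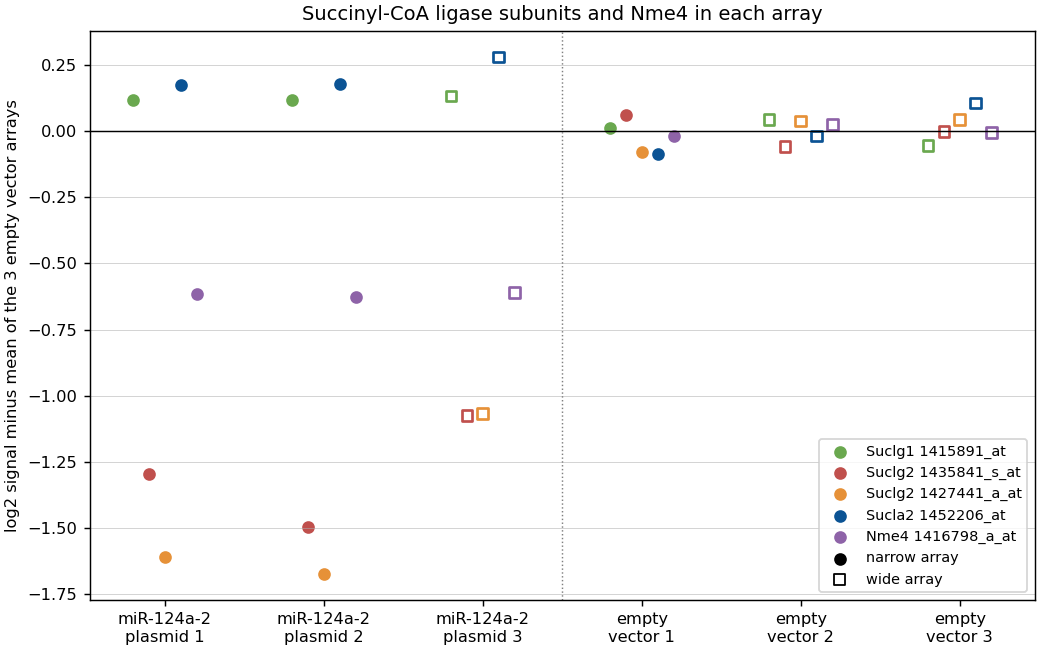
Log2 signal of the succinyl-CoA ligase subunits and of Nme4 in each array, minus the mean of the 3 empty vector arrays. Filled circles are narrow arrays and open squares wide arrays. Both Suclg2 probe sets lie between -1.67 and -1.07 in the plasmid arrays, the Nme4 probe set lies between -0.63 and -0.61, and Suclg1 and the bright Sucla2 probe set lie between 0.12 and 0.28 in those arrays.

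The size of the Suclg2 difference moved with the array set, but its direction did not. Among the narrow arrays it was -1.46 and -1.56 in the 2 probe sets, and among the wide arrays -1.04 and -1.11. Only 1 empty vector array is narrow and only 1 plasmid array is wide. With the array set as a block the differences were -1.25 ± 0.12 and -1.33 ± 0.12 (SE). Setting arrays with the same replicate number against each other gave differences from -1.71 to -1.07, so each of the 3 pairs showed the lower signal in both probe sets.

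The partner subunits of succinyl-CoA ligase gave small differences of the opposite sign. Suclg1, the alpha subunit shared by both forms of the enzyme, read 10.03, 10.03 and 10.05 with the plasmid, against 9.93, 9.96 and 9.86 with the empty vector. The groups did not overlap, and the log2 difference was 0.12 ± 0.09 (SE; 95% interval -0.08 to 0.32). Sucla2, the alternative beta subunit, read 9.14, 9.14 and 9.24 with the plasmid in its bright probe set 1452206_at, against 8.88, 8.94 and 9.07 with the empty vector. Here too the groups did not overlap, with a log2 difference of 0.21 ± 0.10 (SE; 95% interval -0.01 to 0.43). The intervals of both genes include 0. The other Sucla2 probe sets, 1447056_at and 1430402_at, had means of 3.76 and 3.61 over all arrays, close to the level of the bacterial control, and differed by -0.14 and 0.14.

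The 3 ligase genes differ in the sequence before their transcription starts, which is shown because it is a feature that the choice of genes did not use. The windows are the 250 bases upstream of the start in RefSeq annotation on GRCm38.p6, written 5′ to 3′ on the strand of the gene. Capitals mark matches on either strand to GGGCGG (the GC box bound by SP factors), the NRF1 motif, CCGGAAG (ETS factors such as GABPA), AAGGTCA (nuclear receptors such as ESRRA) and CCAAT.
Suclg2, chr6:95718847-95719096, minus strand: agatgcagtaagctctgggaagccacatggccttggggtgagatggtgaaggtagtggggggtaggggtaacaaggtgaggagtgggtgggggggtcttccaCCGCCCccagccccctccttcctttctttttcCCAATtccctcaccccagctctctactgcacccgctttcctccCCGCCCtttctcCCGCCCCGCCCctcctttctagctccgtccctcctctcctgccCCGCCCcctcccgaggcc
Suclg1, chr6:73248255-73248504, plus strand: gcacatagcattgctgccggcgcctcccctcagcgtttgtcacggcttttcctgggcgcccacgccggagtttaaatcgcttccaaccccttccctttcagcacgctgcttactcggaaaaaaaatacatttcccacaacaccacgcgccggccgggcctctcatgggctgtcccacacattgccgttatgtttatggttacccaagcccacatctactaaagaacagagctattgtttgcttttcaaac
Sucla2, chr14:73552536-73552785, plus strand: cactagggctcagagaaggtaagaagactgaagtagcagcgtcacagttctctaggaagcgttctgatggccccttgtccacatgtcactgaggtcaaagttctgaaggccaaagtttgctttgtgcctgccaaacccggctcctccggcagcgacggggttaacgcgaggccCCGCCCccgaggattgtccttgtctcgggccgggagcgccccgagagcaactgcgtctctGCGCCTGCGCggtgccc
The Suclg2 window held 5 GC boxes, 2 of which share a base, and a CCAAT box at 116 to 112 bases before the start. Sucla2 held 1 GC box and 1 NRF1 match, and Suclg1 held none of the 5 motifs. Over 32851 such windows of all genes, 32.7% held a GC box, 3.74% an NRF1 match, 6.91% the ETS motif, 4.08% the nuclear receptor motif and 33.8% a CCAAT box. CpG dinucleotides numbered 8 in the Suclg2 window, 15 in Suclg1 and 18 in Sucla2, where the median over all windows was 6. GC content was 64.4%, 53.2% and 61.2% in the same order, against a median of 52.4%. Of the other genes with a window, Sdha held 3 NRF1 matches and Cs, Ogdh, Fh1 and Mdh2 none, so that 2 of 8 genes held that motif and 6 of 8 a GC box. A gene was counted if any of its windows matched, and Ogdh has several windows. The counts by gene therefore cannot be set directly against the shares by window. No window of the 8 genes held the ETS or nuclear receptor letters. These matches are a description of letters, and binding was not measured.

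Upstream of the ligase step, citrate synthase and the 2 oxidative decarboxylation enzymes differed little between the groups. Cs, which joins acetyl-CoA and oxaloacetate, has 3 bright probe sets. The brightest, 1422578_at, read 11.03, 10.92 and 11.05 with the plasmid, against 11.04, 10.99 and 11.05 with the empty vector. The log2 differences of the 3 were -0.03, 0.07 and -0.03, and the groups overlapped in each. Idh3a, the catalytic alpha subunit of NAD-dependent isocitrate dehydrogenase, read 10.84, 10.71 and 10.80 with the plasmid in 1432016_a_at, against 10.68, 10.82 and 10.78 with the empty vector. Its 4 probe sets differed by -0.05 to 0.05 and overlapped between the groups. The widest spread was in 1447701_x_at, a dim probe set of a kind prone to cross-hybridisation, which read 5.83, 6.01 and 5.13 with the plasmid and 5.68, 5.61 and 5.72 with the empty vector.

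Ogdh encodes the first component of the 2-oxoglutarate dehydrogenase complex, which makes the succinyl-CoA that the ligase consumes. Its bright probe set 1451274_at read 9.32, 9.22 and 9.34 with the plasmid, against 9.32, 9.43 and 9.49 with the empty vector. The groups overlapped at their edge, where empty vector replicate 1 lay among the plasmid arrays. The log2 difference was -0.12 ± 0.09 (SE; 95% interval -0.33 to 0.10). The dimmer probe set 1445632_at differed by -0.16 ± 0.10, so both probe sets had lower means, and their 95% intervals include 0.

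Downstream of the ligase, Sdha, Fh1 and Mdh2 had equal or slightly higher means with the plasmid. Sdha, the flavoprotein subunit of succinate dehydrogenase that oxidises succinate, read 9.61, 9.42 and 9.67 with the plasmid in 1426688_at, against 9.50, 9.47 and 9.57 with the empty vector. That difference of 0.05 ± 0.10 (SE) and the 0.02 ± 0.11 of 1426689_s_at were smaller than the spread between replicates. The other Sdha probe sets, 1433292_at and 1433293_at, had means of 3.71 and 3.48, near the bacterial control. In the second of them the groups did not overlap (3.33 to 3.41 with the plasmid, 3.53 to 3.64 with the empty vector; log2 difference -0.21).

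Fh1, the fumarase gene, read 10.37, 10.32 and 10.29 with the plasmid, against 10.19, 10.25 and 10.10 with the empty vector. The groups did not overlap, and the log2 difference was 0.15 ± 0.09 (SE; 95% interval -0.06 to 0.36). Mdh2, the mitochondrial malate dehydrogenase gene and the brightest of the 9, read 12.24, 12.08 and 12.15 with the plasmid in 1433984_a_at, against 12.11, 12.04 and 12.07 with the empty vector. Its probe sets differed by 0.08 and 0.09, and the groups overlapped in the first and not in the second.

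**Figure D2:**
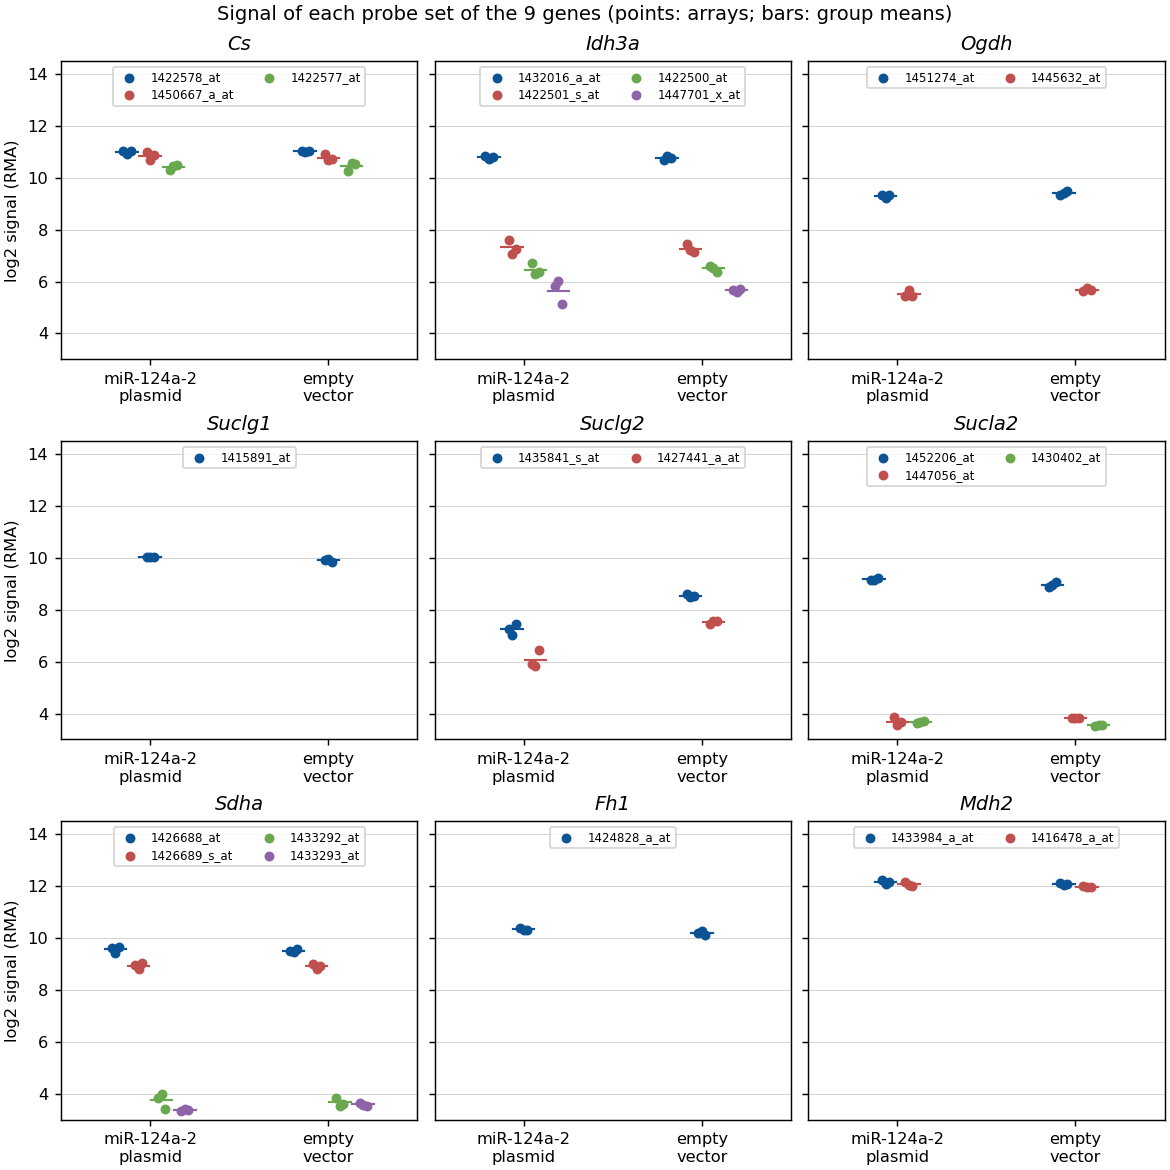
Log2 signal of every probe set of the 9 genes in each array, with the miR-124a-2 plasmid group on the left of each panel and the empty vector group on the right. Points are arrays and bars group means. In the Suclg2 panel the plasmid points of both probe sets lie below the empty vector points, from 5.84 to 7.46 against 7.43 to 8.60, and in the other 8 panels the group means differ by at most 0.21.

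Over the whole group, 2 of 22 probe sets were lower at an adjusted p under 0.05 in limma's fit, both of Suclg2, and none was higher. In the same fit 0.208% of all probe sets were lower and 0.0599% higher, 0.268% in either direction. With only the brightest probe set of each gene, 1 of the 9 genes was lower, beside 0.698% of all 18194 genes (0.907% in either direction). As the contrast was the one that led to this choice of genes, nothing is read from that count. It was 0 without empty vector replicate 1, 2 or 3 or plasmid replicate 1 or 2, where at most 12 probe sets of the whole table passed. The 20 probe sets of the other 8 genes differed by -0.21 to 0.21, with 12 above and 8 below 0 and none past the threshold in limma (1 lower at an unadjusted p under 0.05, the dim Sdha probe set; 3.42% of all probe sets were higher and 4.76% lower at that level, 8.18% in all). The 14 of these with a mean signal of at least 6 differed by -0.12 to 0.21, and their 95% intervals lay within -0.35 and 0.43. Groups without overlap were seen in 5 probe sets that were higher (Suclg1, 2 of Sucla2, Fh1 and 1 of Mdh2) and in 3 that were lower (2 of Suclg2 and 1 of Sdha). Over all probe sets that share was 6.27% higher and 6.96% lower, 13.2% in either direction. The median log2 difference was 0.02 over the 22 probe sets and 0.002 over all 45101. The mean signal over the 20 probe sets outside Suclg2 was 8.26, 8.18 and 8.17 in plasmid replicates 1 to 3, against 8.20, 8.18 and 8.18 in the empty vector replicates.

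**Figure D3:**
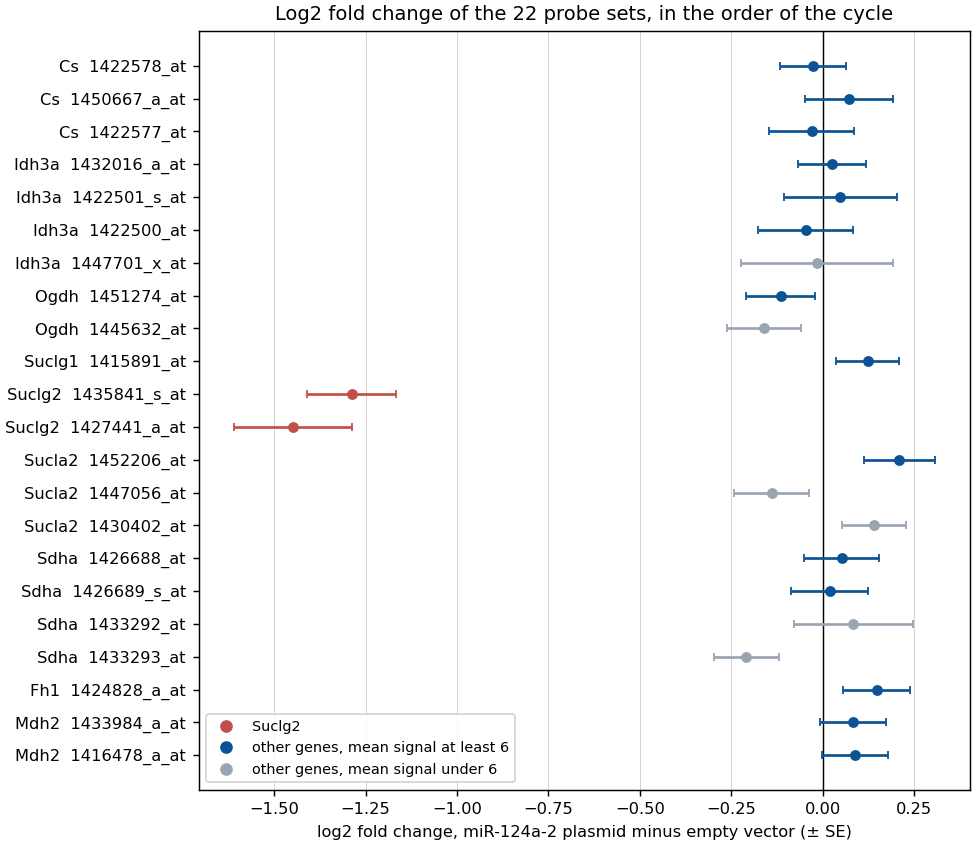
Log2 fold change (miR-124a-2 plasmid minus empty vector) of the 22 probe sets in the order of the cycle, with bars of 1 SE from limma's fit. Suclg2 lies at -1.29 and -1.45, and the other 20 probe sets lie between -0.21 and 0.21. Grey points have a mean signal under 6.

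Related enzymes were listed by function, with earlier results of these data known, and read from the same fit. Their values and adjusted p are therefore given as a description. The subunits that complete the complexes of the cycle did not pass: none of 16 probe sets of Idh3b, Idh3g, Dlst, Dld, Sdhb, Sdhc and Sdhd changed in limma (0 at an unadjusted p under 0.05). Their median log2 fold change was 0.04 and their range -0.17 to 0.15. The extremes were a Dlst probe set with a mean of 6.48 at -0.17 (adjusted p = 0.690) and Idh3b at 0.15 (adjusted p = 0.764). The brightest Dlst probe set, with a mean of 10.00, differed by 0.05. Dlst is the succinyl-transferring component of the 2-oxoglutarate dehydrogenase complex.

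Among genes that make or use succinyl-CoA or trade phosphate with the ligase, 17 of 23 probe sets were above 0 and 6 below. At an adjusted p under 0.05 in limma, 1 was lower and none higher, beside 0.208% and 0.0599% of all probe sets. The lower one belongs to Nme4, a mitochondrial nucleoside diphosphate kinase, an enzyme class that exchanges the terminal phosphate of GTP with ADP. Nme4 read 6.05, 6.03 and 6.05 with the plasmid, against 6.64, 6.69 and 6.66 with the empty vector. The plasmid arrays lay within 0.02 of each other and below every empty vector array. Nme4 was 1.53-fold lower, a log2 fold change of -0.62 with an SE of 0.08 (adjusted p = 0.0383). The narrow arrays alone gave -0.60, the wide arrays -0.62. The call passed in 8 of 17 alternatives (adjusted p from 0.0194 to 0.297). It was lost without empty vector replicate 1, 2 or 3 (0.111, 0.297 and 0.256) or plasmid replicate 1 or 2 (0.144 and 0.125), with median centring (0.0646), with an intensity trend without or with robust estimation (0.0683 and 0.0678) and without both replicate 1 arrays (0.293), while the fold change stayed within -0.63 and -0.60. Nme4 has 1 probe set. The median of the list was 0.09, against 0.002 over all probe sets. At an unadjusted p under 0.05 in limma, 2 probe sets were higher and 1 lower, beside 3.42% and 4.76% of all. Other members such as Oxct1, which transfers coenzyme A from succinyl-CoA to ketone bodies, did not pass.

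The plasmid arrays lay farther apart for Suclg2 than for Nme4. Relative to the empty vector mean, Suclg2 stood at -1.30, -1.49 and -1.07 in plasmid replicates 1 to 3 (1435841_s_at), and Nme4 at -0.61, -0.63 and -0.61.

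None of 28 probe sets for the entry of pyruvate into the cycle changed in limma, and their median was 0.07. At an unadjusted p under 0.05, 4 were higher and 3 lower, beside 3.42% and 4.76% of all probe sets. Pdpr, the regulatory subunit of pyruvate dehydrogenase phosphatase, had the largest values. Its probe set 1459869_x_at read 6.39, 6.35 and 6.44 with the plasmid, against 7.06, 6.85 and 7.06 with the empty vector, a log2 difference of -0.60 (adjusted p = 0.0698, 0.0313 to 0.375 over the alternatives, of which 4 of 15 passed). Probe set 1434480_at had -0.62 (adjusted p = 0.188, 0.0431 to 0.711 over the alternatives, of which 3 of 14 passed). Blocked on the array set, they passed at -0.61 and -0.50 (adjusted p = 0.0392 and 0.0493). Neither is the brightest probe set of Pdpr.

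Of 42 probe sets for cytosolic or NADP-linked counterparts, feeder enzymes and carriers, none changed in limma, and the median was 0.02. At an unadjusted p under 0.05, 3 were higher and 2 lower, beside 3.42% and 4.76% of all probe sets. Idh1, the cytosolic NADP-dependent isocitrate dehydrogenase gene, had the largest values, 0.92 in 1419821_s_at and 0.80 in 1422433_s_at (adjusted p = 0.464 and 0.307). The second read 8.53, 9.07 and 9.36 with the plasmid, against 7.84, 8.28 and 8.46 with the empty vector. Both groups spread widely and their replicate 1 arrays were the lowest. Without empty vector replicate 1 the values were 0.60 and 0.62. With the array set as a block these 2 values were 1.21 and 0.98 and passed (adjusted p = 0.0213 and 0.0288, where 1.13% of all probe sets passed). Blocking on the poly-A batch instead, they passed at 0.0431 and 0.0356, with 0.752% of all. Over all alternatives the adjusted p ran from 0.0151 to 0.884 for the first and from 0.0170 to 0.763 for the second.

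The remaining mitochondrial and glycolytic lists held no called probe set in limma. At an unadjusted p under 0.05 in that fit, 3.42% of all probe sets were higher and 4.76% lower. Of 44 probe sets of the respiratory chain and ATP synthase, 39 were above 0 with a median of 0.06, none at an unadjusted p under 0.05. The median over all probe sets was 0.002. The 44 probe sets share the same 6 arrays, so their signs are not independent and are not read as a test. Their extremes were -0.22 for Atp5a1 and 0.21 for Atp5c1 (adjusted p = 0.715 and 0.709), both subunits of the ATP synthase. The Atp5a1 value is from 1420037_at, which had a mean of 6.51 and overlapping groups. It is not the brightest probe set of that gene. Of 26 probe sets for lipoyl, iron-sulfur and succinate dehydrogenase assembly, 1 was higher at an unadjusted p under 0.05, and the largest values were 0.29 for the iron-sulfur scaffold gene Nfu1 and 0.24 for Iba57. Of 38 probe sets for mitochondrial content and biogenesis, 4 were lower at that level (median -0.02). The largest values were -0.34 for Gabpa, with overlapping groups, and -0.32 for Nrf1, transcription factors of mitochondrial genes (adjusted p = 0.807 and 0.572). Of these, Nrf1 is among the 4 and Gabpa is not. The values are from 1450664_at for Gabpa and 1434627_at for Nrf1, with means of 7.35 and 6.16. Neither is the brightest probe set of its gene. Of 34 glycolytic probe sets, 6 were higher at that level (median 0.04), with 0.79 for Aldoc and 0.56 for Eno2, the brain forms of aldolase and enolase (adjusted p = 0.435 and 0.565). Both passed when blocked on the poly-A batch (0.0292 and 0.0407; from 0.0204 to 0.911 and from 0.0368 to 0.92 over the alternatives). Summed signals of 10 catecholaminergic neuron markers also stood higher, at 11887 to 12473 with the plasmid and 10207 to 10955 with the empty vector (linear signal). Of their 17 probe sets none passed in limma and 5 were higher at an unadjusted p under 0.05. Of 7 epithelial marker probe sets none passed and 3 were higher at that level, all of Krt8 (0.32 to 0.41), a keratin gene, while the summed epithelial signal overlapped at 220.1 to 244.0 with the plasmid and 184.4 to 252.0 with the empty vector. Their part in these values was not tested.

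**Figure D4:**
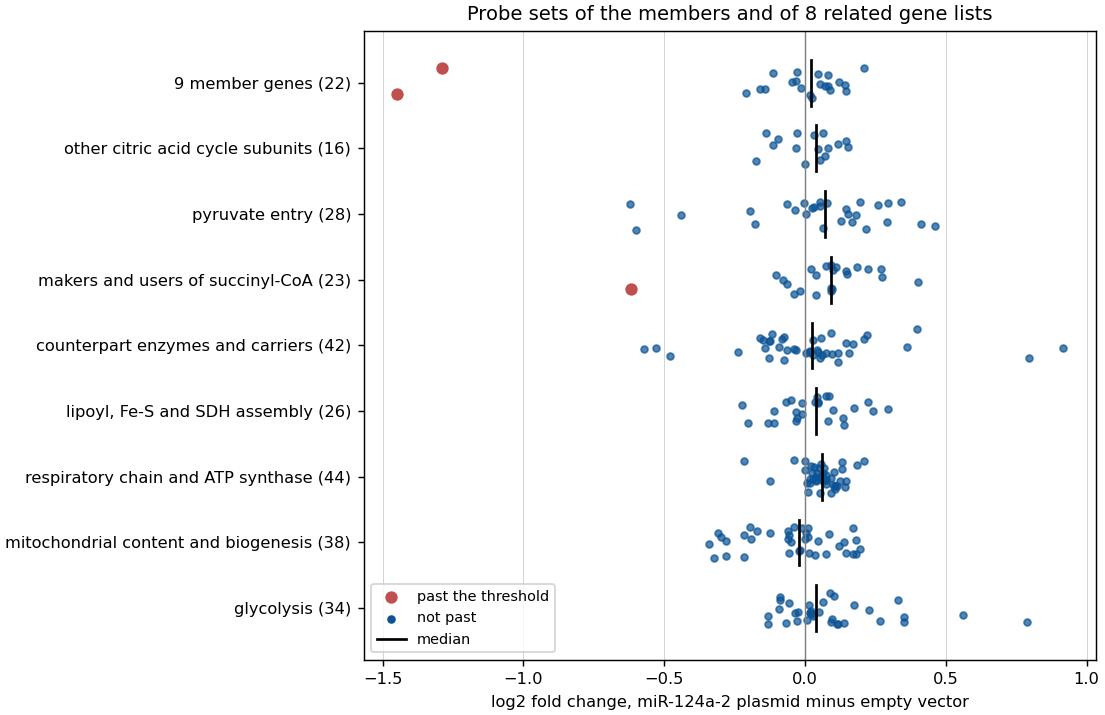
Log2 fold change (miR-124a-2 plasmid minus empty vector) of each probe set of the 9 genes and of 8 related gene lists, with the number of probe sets in parentheses. Black bars are medians and large red points passed an adjusted p of 0.05. The red points are the 2 Suclg2 probe sets and Nme4 at -0.62, and the medians lie between -0.02 and 0.09.

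The genes whose arrays followed Suclg2 most closely were Wasf2, Plp2, Atp6v0e, Cmtm6, Rab34 and Ptbp1. Their brightest probe sets had Pearson correlations of 0.996 to 0.999 with 1435841_s_at over the 6 arrays, the highest among named genes outside the 9. These arrays fall into the 2 groups, so each such correlation mainly repeats the group difference and is given without a p. The log2 fold changes ran from -1.65 for Wasf2, an activator of actin assembly, to -0.93 for Rab34, a small GTPase. Atp6v0e, a subunit of the proton-pumping vacuolar ATPase, had -1.10, Plp2 had -1.31, Cmtm6 had -0.95 and Ptbp1 had -1.24.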

How the data were processed

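The authors summarised each array with RMA, per the submitters' processing notes, and deposited a log2 value for every probe set. Its version, the probe definitions and filtering are not given in the sources used here. Labelled cRNA came from 6 ug of total RNA per the labels' protocols. Probe sets were named from the platform annotation of the array (34958 with 1 gene, 932 with several, 9211 not listed), and only those with 1 gene were used for genes.

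The 3 plasmid and 3 empty vector arrays entered a two-sided limma fit without a block (version 3.58.1 under R 4.3.3; lmFit, then eBayes) over all 45101 probe sets, with Benjamini-Hochberg adjustment and a threshold of 0.05. Every adjusted p in the text is from limma. The model was tested on simulated data. No detection calls were used. Precision is limited by how few arrays there are.

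The 9 genes and the gene lists were chosen with earlier results of these data known. Named were all probe sets of the 9 genes, up to 3 passing probe sets per list (or the 2 largest values where none passed), the 6 genes most like Suclg2, and Ptbp1. List symbols were matched directly or through unique synonyms (111 of 118 pathway genes). Alternatives were blocks, left-out arrays, scaling, a filter on dim probe sets (mean under 6), intensity trends, gene-level values and other thresholds. Fits without the replicate 1 arrays were added after seeing the data.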

Additional observations from a re-analysis of the deposited data

How the results depend on the processing

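Both Suclg2 probe sets, chosen for their fall in these same arrays, kept their direction in all alternatives run. They ran from -1.40 to -1.19 (17 alternatives) and from -1.64 to -1.33 (15 alternatives). Of the 22 probe sets, 2 passed in the reported fit, 1 with median centring, 1 gene with the brightest probe set or the mean of probe sets per gene, and 0 at an adjusted p under 0.01. Leaving out single arrays gave 0 to 2 in limma (2 or 3 at an unadjusted p under 0.05): 0 without empty vector replicate 1, 2 or 3 or plasmid replicate 1 or 2, and 2 without plasmid replicate 3. It was 0 without both replicate 1 arrays (2 unadjusted). These losses went with the count over the whole table, which was 121 in the reported fit, 0 to 352 with single arrays left out (2309 to 5514 unadjusted) and 0 without the replicate 1 arrays (3732 unadjusted). It was 39 with median centring, 262 with quantile normalization, 223 with dim probe sets removed, 215 and 229 with an intensity trend without and with robust estimation, 509 when blocked on the array set, 339 when blocked on the poly-A batch, and 0 and 301 at adjusted p under 0.01 and 0.10 (3688 unadjusted).

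Of the 251 probe sets of related genes, 1 passed in the reported fit. It was 7 when blocked on the array set, 6 on the poly-A batch, 2 with dim probe sets removed, 0 with median centring (21 unadjusted), 0 with either intensity trend (32 unadjusted), and 0 and 2 at adjusted p under 0.01 and 0.10. It was 0 to 2 with single arrays left out (19 to 27 unadjusted) and 0 without the replicate 1 arrays (25 unadjusted).

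With the replicate number as a block, 673 probe sets (1.49%) passed over the whole table, 2 of the 22 and 7 of the related genes. The labels do not say that equal numbers mark a shared batch, so the reported fit did not take them as pairs. The same-numbered arrays correlated in their deviations by 0.581, 0.0263 and 0.556, and replicate 2 arrays did not correlate best with each other. No called value changed sign in any alternative run. Suclg1, the bright Sucla2 probe set, Fh1 and Mdh2 stayed above 0 and Ogdh below 0 throughout. The Cs and Idh3a probe sets and Sdha 1426689_s_at crossed 0 in at least 1 alternative. Sdha 1426688_at stayed above 0 on its own, and only the mean over all Sdha probe sets was below 0, at -0.01. The cause of these shifts was not tested.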

Other observations

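Pdp1 and Pdpr encode the catalytic and the regulatory subunit of pyruvate dehydrogenase phosphatase, which activates the complex that feeds acetyl-CoA into the cycle. They were picked after their values were seen. Of their probe sets, 2 of Pdp1 had log2 fold changes of 0.46 and 0.41 (limma adjusted p = 0.606 and 0.782), while 3 of 4 Pdpr probe sets had -0.62, -0.60 and -0.44 without overlap between the groups. Over all probe sets, 6.96% were lower without overlap. The Pdpr probe sets at -0.62 and -0.60 (1434480_at and 1459869_x_at) had means of 5.77 and 6.69. Neither is the brightest probe set of Pdpr. The Pdp1 values were 0.25 and 0.24 without empty vector replicate 1, and 0.31 and 0.13 without plasmid replicate 3. With the array set as a block both Pdp1 probe sets passed at 0.64 (adjusted p = 0.0263 and 0.0387), where 1.13% of all probe sets passed. In that fit 2 of the Pdpr probe sets passed too, at -0.50 and -0.61 (adjusted p = 0.0493 and 0.0392). Over the alternatives the adjusted p of Pdp1 ran from 0.0263 to 0.993 and from 0.0387 to 1.000. Pdp1 passed in 1 of 17 and 1 of 15 alternatives.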
